A study of Mus musculus with 4 samples.

Results

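Cathepsins are the proteases of the lysosome, the acidic compartment in which a macrophage breaks down what it has taken up. They are made as inactive precursors, carried to the lysosome by mannose 6-phosphate receptors and activated there by cleavage. Some are also secreted. In macrophages they digest ingested protein, trim antigens and the invariant chain for presentation on MHC class II, and cleave matrix proteins outside the cell. The 10 cathepsins described here were taken by gene symbol from the deposited count table, as 10 of its 54532 genes. They are the cysteine cathepsins *Ctsb*, *Ctsc*, *Ctsh*, *Ctsk*, *Ctsl*, *Ctss* and *Ctsz*, the aspartic cathepsins *Ctsd* and *Ctse*, and the serine carboxypeptidase *Ctsa*. All 10 reached 10 reads in 1 or more libraries, the limit that kept 13715 genes.

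The RNA came from peritoneal macrophages of wild-type adult BALB/c mice that had been injected with thioglycollate to draw macrophages into the peritoneal cavity. The cells were cultured without or with 30% 4T1-CM, the conditioned medium of the mouse mammary carcinoma line 4T1. Normal medium and 4T1-CM were each combined with the solvent DMSO or with 10 µM CH223191, an antagonist of the aryl hydrocarbon receptor (AHR), which made 4 conditions with 1 RNA-seq library each. The macrophages were exposed to the inhibitor before 4T1-CM was added. The length of the culture, and whether the cells of 1 library came from 1 mouse or from several, are not given in the sources used here. The comparisons ask how the macrophages responded to factors from tumour cells and whether that response depended on AHR.

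The libraries held 15535405 to 17557127 reads in genes. With 1 library per condition, a difference between 2 libraries has no replicate check, and the 95% intervals given with the log2 ratios cover counting error only. All 8 macrophage markers were detected in every library. Their summed level was 14449 and 18609 CPM (counts scaled to library size) in normal medium and 37882 and 40424 CPM in 4T1-CM, with DMSO and with CH223191 respectively. Most of this sum was *Lyz2*, at 11888 and 15185 CPM in normal medium and 32957 and 35572 CPM in 4T1-CM. In the additive fit described below 6 of the 8 markers rose with 4T1-CM, where 16.4% of all genes rose and 16.2% fell. The others, *Cd68* and *Ptprc*, had log2 ratios of 0.84 and 0.07, and of -0.13 and 0.17. The T cell genes *Cd3d*, *Cd3e* and *Cd3g* were at 0 reads in all 4 libraries, while *Cd4* had 3 to 11 reads and *Klrb1c* at most 6. Of 6 B cell markers 1 was kept, *Ighm*, with 317 and 540 reads in normal medium and 128 and 67 in 4T1-CM, and it fell. Dendritic cell markers summed to 37 and 18 reads in normal medium and to 66 and 52 in 4T1-CM, and of the 3 kept 2 rose. Of 9 neutrophil markers *Ly6g*, *S100a9* and *Retnlg* were at 0, but of the 4 that were kept 3 rose with 4T1-CM and 1, *Cxcr2* at 12 reads or fewer, fell. Their summed level was 67.6 and 74.6 CPM in normal medium and 242 and 181 CPM in 4T1-CM. *Mmp8*, neutrophil collagenase, had 35 and 21 reads in normal medium and 2142 and 759 in 4T1-CM, and was also called lower with CH223191 (adjusted p = 0.036). *S100a8* had 99 and 190 against 560 and 412 reads, and *Csf3r* 929 and 959 against 1521 and 1759. Summed epithelial markers stayed at or below 1.35 CPM. Fibroblast markers summed to 65.1 and 31.0 CPM in normal medium and to 157 and 134 CPM in 4T1-CM. The part of these differences in the results below was not tested. In bulk RNA, a change in the number of cells of a type and a change in the RNA of each cell cannot be told apart.

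The cathepsins took a large part of the macrophage transcriptome. Their reads made up 5.89% (95% Clopper-Pearson interval 5.88 to 5.90) of the normal medium library with DMSO and 6.09% (6.08 to 6.10) of that with CH223191. In 4T1-CM the shares were 6.08% (6.07 to 6.09) with DMSO and 6.34% (6.33 to 6.35) with CH223191. In each library 6 of the 10 stood among the 50 genes with the most reads. *Ctsb* was the third gene of all by reads in normal medium, and *Ctsl* was the third in 4T1-CM with CH223191.

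Per length of the gene, as TPM (reads per base of the gene, scaled to the same sum in every library), the aspartic protease *Ctsd* had the highest level, with 21278 and 21179 TPM in the normal medium libraries and 14560 and 15852 TPM in the 4T1-CM libraries, DMSO first and CH223191 second. *Ctss*, the cysteine protease that completes the trimming of the invariant chain, followed with 9505 to 11087 TPM. *Ctsz* lay between 3721 and 5792 TPM, and *Ctsl* was at 5374 and 5490 TPM in normal medium and at 8774 and 9359 TPM in 4T1-CM. *Ctsb*, an abundant endo- and carboxypeptidase, lay between 8417 and 10530 TPM, the serine carboxypeptidase *Ctsa* between 1109 and 1490 TPM, and *Ctsk*, best known as the collagen-cleaving protease of osteoclasts, between 814 and 1120 TPM. *Ctsh* and *Ctsc*, which cleave from the amino terminus, were much lower, at 64.8 to 164 TPM and 45.7 to 104 TPM. *Ctse* was the lowest, with 42 to 80 reads in a library and 2.24 to 4.50 TPM.

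The order of these levels was *Ctsd*, *Ctss*, *Ctsb*, *Ctsz*, *Ctsl*, *Ctsa*, *Ctsk*, *Ctsh*, *Ctsc*, *Ctse* in both normal medium libraries. In both 4T1-CM libraries *Ctsl* moved from rank 5 to rank 3. There *Ctss*, *Ctsl* and *Ctsb* lay close together, at 9505, 8774 and 8515 TPM with DMSO, and without replicates their spread is unknown. The top of the order depended on the length used. The gene length in the table is that of all annotated exons, which is 6489 bases for *Ctsl* and 1358 bases for *Ctss*. Per coding length instead, *Ctsb* was first in normal medium with 21609 TPM and *Ctsl* first in 4T1-CM with DMSO with 20415 TPM, while ranks 6 to 10 were the same.

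**Figure D1:**
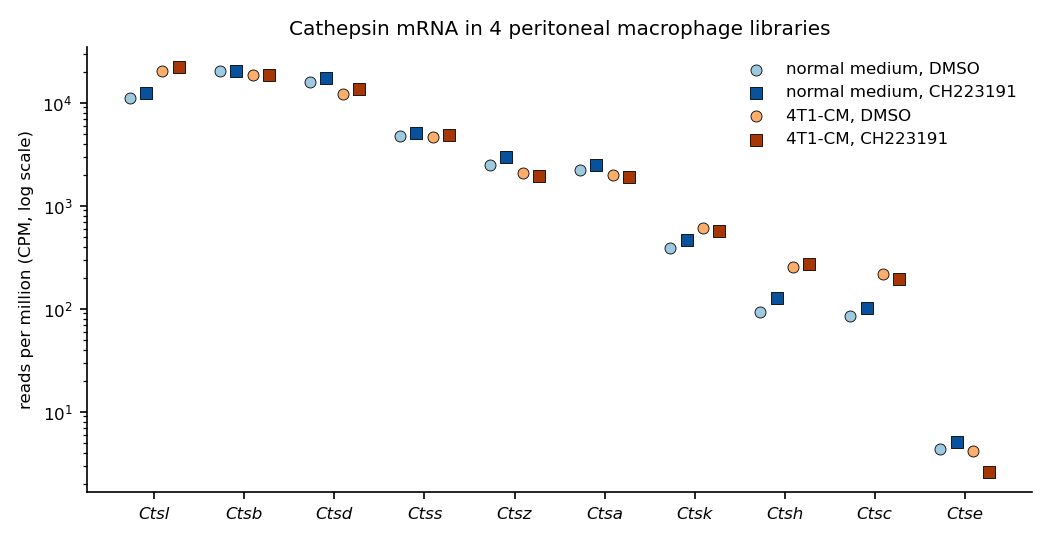
Scaled counts (CPM, log axis) of the 10 cathepsins, with 1 point per library, light or dark blue for normal medium and light or dark orange for 4T1-CM, circles for DMSO and squares for CH223191. The *Ctsl*, *Ctsk*, *Ctsh* and *Ctsc* points of 4T1-CM lie above those of normal medium, and *Ctse* lies at 2.59 to 5.03 CPM. Counts are not corrected for gene length here, so the picture compares libraries within a gene.

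Positions are on GRCm38, and all 10 are the same in the GENCODE M21 annotation. *Ctsk* (ENSMUSG00000028111, chr3:95499256-95509362, plus strand) and *Ctss* (ENSMUSG00000038642, chr3:95526786-95556403, plus strand) are neighbours with 17423 bases between them. The genes that rose with 4T1-CM lie apart: *Ctsl* (ENSMUSG00000021477) at chr13:64359337-64370890 on the minus strand, *Ctsh* (ENSMUSG00000032359) at chr9:90054152-90076089 and *Ctsc* (ENSMUSG00000030560) at chr7:88278085-88310888, both on the plus strand. *Ctsd* (ENSMUSG00000007891) at chr7:142375911-142388038, minus strand, shares 808 exonic bases with *Gm49369* on the same strand, and 32.4% of its 50-base words occur in that gene, which had 0 reads in all libraries. Reads of *Ctsd* that fall in the shared part could have been assigned or dropped by rules that are not given in the sources used here. *Ctsl* shares 1742 exonic bases with *Gm47123* on the other strand and 395 with *Gm49230* on its own, both at 0 reads in all libraries. Of its 50-base words 6.46% occur in other genes. *Ctsb* (ENSMUSG00000021939) is at chr14:63122462-63145923, plus strand, and *Ctsz* (ENSMUSG00000016256) at chr2:174427493-174439039, minus strand. *Ctsb* shares 774 exonic bases with *Fdft1* on the other strand, which had 699 to 1042 reads in a library. *Ctsa* (ENSMUSG00000017760) at chr2:164832873-164841032, plus strand, shares 495 exonic bases with *Pltp* on the other strand. *Ctse* (ENSMUSG00000004552) is at chr1:131638306-131675505, plus strand.

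The start sites were examined for the CACGTG motif because the MiT/TFE factors, which switch on lysosomal genes, bind it. RefSeq windows (GRCm38.p6, from 250 bases before to 50 after a start) were at hand for 8 starts of 7 cathepsins. They held CACGTG for *Ctsd*, for *Ctsl* and for start 2 of *Ctsa*. Start 2 of *Ctsa* lies inside the span given above. So do the *Ctsl* stretch and the *Ctsd* stretch at chr7:142387908-142387937 printed below. Start 1 of *Ctsa* held 0 matches, and 7.15% of all 32851 windows held the motif. The strand makes no difference for this motif, since it reads the same on both. The matches are shown in capitals in 30 bases each, 5′ to 3′ on the strand of the gene.
Ctsa, chr2:164833758-164833787, plus strand: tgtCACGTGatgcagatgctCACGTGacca
Ctsd, chr7:142388048-142388077, minus strand: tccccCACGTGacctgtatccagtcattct
Ctsd, chr7:142387908-142387937, minus strand: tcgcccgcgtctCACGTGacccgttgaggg
Ctsl, chr13:64370739-64370768, minus strand: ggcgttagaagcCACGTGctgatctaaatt
The 3 genes that hold it went separate ways with 4T1-CM in the values below, *Ctsl* higher, *Ctsd* lower and *Ctsa* without a call.

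*Ctsk* and *Ctss*, the neighbours on chromosome 3, and *Ctsc* held GAGGAA, the core letters of sites of the macrophage factor PU.1, on either strand. Of all windows, 28.3% held it. The 250 bases before the start are shown for the neighbouring pair because *Ctsk* rose with 4T1-CM and *Ctss* had no call, with GAGGAA or its reverse complement TTCCTC in capitals. A further match of *Ctss* lies just past its start and outside the bases shown.
Ctsk, chr3:95498960-95499209, plus strand: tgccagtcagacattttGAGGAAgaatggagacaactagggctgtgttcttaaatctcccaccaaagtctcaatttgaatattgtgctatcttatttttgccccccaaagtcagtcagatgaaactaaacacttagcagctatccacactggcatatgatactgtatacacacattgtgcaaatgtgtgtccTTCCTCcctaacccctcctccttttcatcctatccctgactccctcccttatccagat
Ctss, chr3:95526536-95526785, plus strand: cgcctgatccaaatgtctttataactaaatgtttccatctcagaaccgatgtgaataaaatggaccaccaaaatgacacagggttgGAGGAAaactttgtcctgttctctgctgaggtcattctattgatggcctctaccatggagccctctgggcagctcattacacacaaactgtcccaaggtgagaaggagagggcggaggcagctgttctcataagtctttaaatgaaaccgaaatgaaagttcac
GCGTG, the core of the AHR response element, occurred on either strand in windows of *Ctsa*, *Ctsc*, *Ctsd* and *Ctsl* and in 32.4% of all windows. TTCNNNGAA, the core of STAT sites, occurred in that of *Ctsc* and in 8.30% of all windows. These sequences are of the C57BL/6 reference and not of the BALB/c mice, and a match is a run of letters, not a measured binding site.

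To compare 4T1-CM with normal medium, log2 ratios were taken after scaling the libraries by the TMM method, once between the libraries with DMSO and once between those with CH223191. These 2 comparisons share no library. The p-values come from a single edgeR quasi-likelihood fit to the 4 libraries with medium and inhibitor as additive terms, adjusted by the Benjamini-Hochberg method over all 13715 genes. This fit has 1 residual degree of freedom, and it treats any dependence of the medium effect on the inhibitor as error. It borrows its estimate of error across genes. Without replicates, its p-values and standard errors (SE) do not measure the spread between mice or cultures treated alike. "Rose" and "fell" are used for an adjusted p under 0.05 in this fit. By it 4 cathepsins rose with 4T1-CM (*Ctsl*, *Ctsh*, *Ctsc* and *Ctsk*) and 2 fell (*Ctsd* and *Ctsz*), where 16.4% of all genes rose and 16.2% fell. All 4 that rose are cysteine proteases, but so are 7 of the 10 cathepsins, among them *Ctsz*, which fell.

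*Ctsl*, the broad cysteine endopeptidase of the lysosome, was the cathepsin with the largest gain in reads. It stood at 11106 and 12551 CPM in the normal medium libraries and at 20414 and 22108 CPM in the 4T1-CM libraries, DMSO first and CH223191 second. Both 4T1-CM libraries were above both normal medium libraries, though the libraries of a medium differ in inhibitor and are not replicates. The log2 ratio was 0.88 (95% interval 0.87 to 0.89) with DMSO, which is 1.84-fold, and 0.82 with CH223191, which is 1.76-fold. In the additive fit it rose by 0.85 ± 0.09 (SE, adjusted p = 5.8e-05).

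*Ctsh*, an aminopeptidase of the lysosome, had the largest ratio. Its level was 92.8 and 126 CPM in normal medium and 256 and 269 CPM in 4T1-CM, with DMSO and with CH223191 respectively. It was 2.76-fold higher with DMSO (log2 1.46, 1.38 to 1.55) and 2.13-fold higher with CH223191 (log2 1.09, 1.02 to 1.17). The additive fit gave 1.28 ± 0.14 (adjusted p = 6.6e-05).

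*Ctsc*, the dipeptidyl peptidase that activates the serine proteases of granules, followed. It was at 84.6 and 101 CPM in normal medium and at 216 and 194 CPM in 4T1-CM. The difference was 2.55-fold with DMSO (log2 1.35, 1.26 to 1.44) and 1.92-fold with CH223191 (log2 0.94, 0.85 to 1.03). It rose by 1.15 ± 0.14 in the additive fit (adjusted p = 1.5e-04).

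*Ctsk* was at 392 and 467 CPM in normal medium and at 607 and 568 CPM in 4T1-CM. The log2 ratio was 0.63 (0.59 to 0.68) with DMSO and 0.28 (0.24 to 0.33) with CH223191, so the difference was smaller in the presence of the inhibitor. In the additive fit it rose by 0.46 ± 0.13 (adjusted p = 0.023). Osteoclasts and fibroblasts also make *Ctsk*. Summed fibroblast markers were higher in 4T1-CM, as given above, and 5 of the 6 that were kept rose, beside 16.4% of all genes. Summed osteoclast markers were at 1246 and 1390 CPM in normal medium and at 1157 and 1137 CPM in 4T1-CM, with the calcitonin receptor *Calcr* at 0 reads in every library and *Acp5*, the tartrate-resistant phosphatase, at 1040 and 1663 reads in normal medium and 9081 and 7316 in 4T1-CM. Of the 6 osteoclast markers kept 1 rose, *Acp5*, and 3 fell, beside 16.4% and 16.2% of all genes. *Atp6v0d2* had log2 ratios of -0.95 with DMSO and -0.98 with CH223191, *Itgb3* of -0.96 and -1.0, and *Dcstamp* of -0.74 and -0.71, the last without a call by DESeq2 (adjusted p = 0.093). The part of such cells in the result was not tested.

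*Ctsd*, the main aspartic protease, was at 15933 and 17544 CPM in normal medium and at 12273 and 13567 CPM in 4T1-CM. Its log2 ratio was -0.38 with DMSO and -0.37 with CH223191, and it fell by 0.37 ± 0.09 in the additive fit (adjusted p = 0.0099). With DESeq2 in place of edgeR its adjusted p was 0.061. *Ctsz*, a carboxypeptidase that can bind integrins, was at 2510 and 2941 CPM in normal medium and at 2085 and 1952 CPM in 4T1-CM. Its log2 ratio was -0.27 (-0.29 to -0.25) with DMSO and -0.59 (-0.61 to -0.57) with CH223191. The additive fit gave -0.43 ± 0.12 (adjusted p = 0.019).

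Genes near the short lengths of *Ctsz*, *Ctss* and *Ctsk* had lower median ratios with 4T1-CM than genes near the lengths of the longer cathepsins. The 50 genes nearest to *Ctsz* in length (1441 bases) had a median log2 ratio of -0.28 with DMSO and -0.42 with CH223191. The 50 nearest to *Ctsc* (5808 bases) had 0.07 and 0.10. With DMSO the medians did not climb evenly with length, at -0.20 near *Ctsk* (1512 bases) and -0.17 near *Ctsh* (4499 bases). Less the median for its own length, *Ctsz* was at 0.02 and -0.17, *Ctss* at 0.30 and 0.36, and *Ctsk* at 0.83 and 0.72. *Ctsd* went from -0.38 to -0.28 with DMSO and from -0.37 to -0.16 with CH223191. The ratio of *Ctsz* with DMSO and both ratios of *Ctss* thereby changed sign. *Ctsl*, *Ctsh* and *Ctsc* remained at 0.77 or more.

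The other 4 cathepsins had no call for 4T1-CM. *Ctsb* had log2 ratios of -0.14 with DMSO and -0.14 with CH223191 (adjusted p = 0.25), and *Ctss* of -0.05 and -0.06 (adjusted p = 0.71). *Ctsa*, which protects β-galactosidase and neuraminidase in a complex, had -0.15 and -0.38 (adjusted p = 0.10). The gene *Pltp* on the opposite strand of *Ctsa* had 7326 and 10181 reads in normal medium and 13776 and 17091 in 4T1-CM, and since the strand setting of the counting is not given, reads of the overlap cannot be told apart. *Ctse*, an endosomal aspartic protease, had 69 and 80 reads in normal medium and 73 and 42 in 4T1-CM, with a log2 ratio of -0.05 (-0.55 to 0.44) with DMSO and -0.95 (-1.54 to -0.40) with CH223191 (adjusted p = 0.22). A difference with DMSO was not detectable at this depth.

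Counted by a fixed fold, 2 cathepsins were at least 2-fold higher with 4T1-CM in DMSO and 0 were at least 2-fold lower, against 12.2% and 6.11% of all genes. With CH223191 1 was at least 2-fold higher, *Ctsh*, and 0 lower, against 12% and 7.86% of all genes. The median log2 ratio of the 10 was -0.05 with DMSO and -0.10 with CH223191, beside 0.01 and 0.02 over all genes kept, and that of the 7 cysteine cathepsins was 0.63 and 0.28. At 1.5-fold, 4 were higher and 0 lower with DMSO, against 20.1% and 15.2% of all genes, and 3 were higher and 2 lower with CH223191, against 20.9% and 17.5%.

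**Figure D2:**
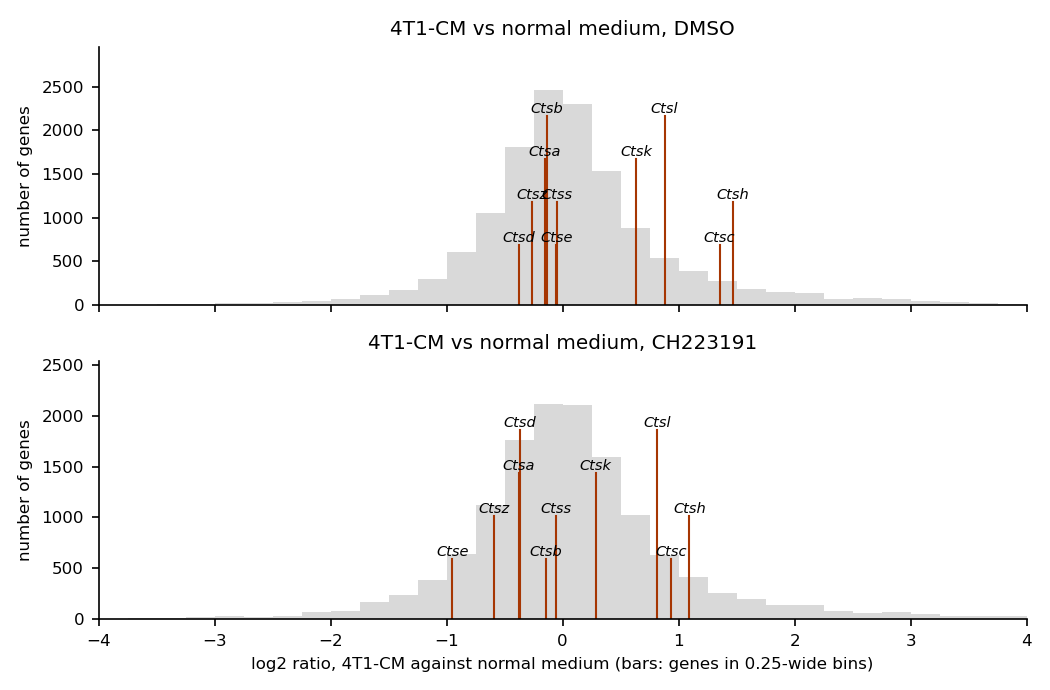
Number of genes kept (grey bars, 0.25-wide bins) by log2 ratio of 4T1-CM against normal medium, with DMSO above and with CH223191 below, and the 10 cathepsins as labelled lines whose heights carry no value. *Ctsh*, *Ctsc* and *Ctsl* stand at the right, at percentiles 92.4, 91.5 and 86.1 of all genes with DMSO, while *Ctsd* stands at the left, at percentile 23.8.

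These differences changed the make-up of the cathepsin reads more than their sum. The summed reads of the 10 had a log2 ratio of 0.086 with DMSO and 0.051 with CH223191. *Ctsl* gave 19.3% and 20.3% of the cathepsin reads in normal medium, for DMSO and then CH223191, and 33.5% and 34.6% in 4T1-CM. The share of *Ctsb* was 35.3% and 33.2% in normal medium and 30.3% and 29.0% in 4T1-CM, and that of *Ctsd* was 27.7% and 28.4% against 20.1% and 21.2%. Within a library, *Ctsl* had 0.547 and 0.613 reads per read of *Ctsb* in normal medium, and 1.11 and 1.19 in 4T1-CM. Such ratios within a library do not depend on the scaling. Per read of *Ctsd*, *Ctsl* had 0.697 and 0.715 reads in normal medium and 1.66 and 1.63 in 4T1-CM.

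**Figure D3:**
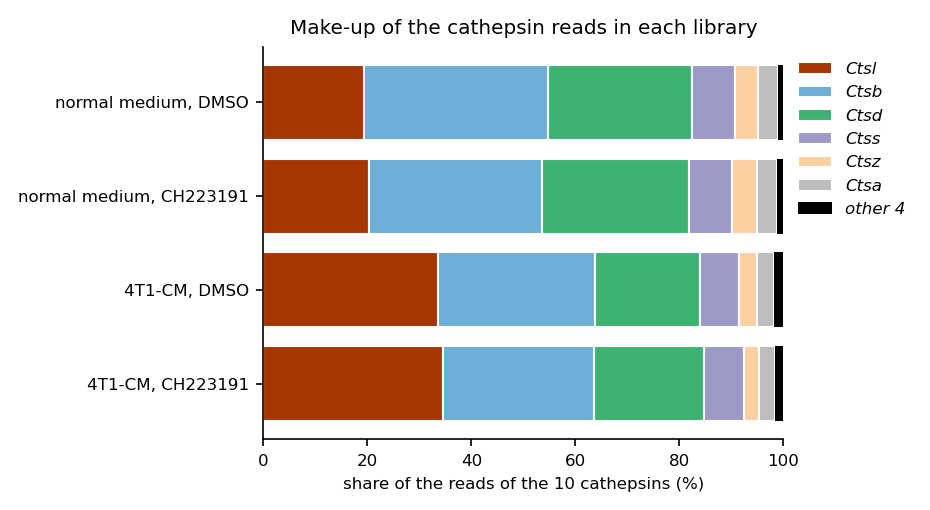
Share of the reads of the 10 cathepsins (percent, bars sum to 100) taken by each in each library, with *Ctsk*, *Ctsh*, *Ctsc* and *Ctse* joined as the other 4. The *Ctsl* segment widens from 19.3% and 20.3% in normal medium to 33.5% and 34.6% in 4T1-CM, while *Ctsb* and *Ctsd* narrow.

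CH223191 was compared with DMSO in each medium, again in 2 comparisons that share no library. They do share libraries with those of 4T1-CM above. In the additive fit 0 of the 10 cathepsins had a call for the inhibitor, with adjusted p from 0.82 to 0.99, and 0 had an unadjusted p under 0.05. DESeq2 also called 0. Over all genes edgeR called 0.0729% higher and 0.00729% lower. By the 2-fold rule 0 cathepsins were higher or lower in either medium, beside 4.84% of all genes higher and 3.31% lower in normal medium and 2.75% and 2.66% in 4T1-CM. At 1.5-fold, 0 were higher or lower in normal medium, against 10.6% and 7.49% of all genes, and in 4T1-CM 0 were higher and 1 lower, *Ctse*, against 6.19% and 6.15%.

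In normal medium the ratios of all 10 cathepsins were above 0, with a median of 0.20 beside 0.00 over all genes. The highest was *Ctsh*, at 0.44 (0.34 to 0.54), followed by *Ctsc* at 0.26 (0.16 to 0.37) and *Ctsk* at 0.25 (0.20 to 0.30). *Ctsb* was nearest to 0, at 0.01, and took the other sign when the libraries were scaled by total counts. Less the median of genes of similar length, *Ctsk* was at 0.06, *Ctsz* at 0.10 and *Ctss* at -0.04 in normal medium, while *Ctsh* was at 0.45 and *Ctsc* at 0.28. The interval of *Ctse* held 0. In 4T1-CM 5 of the 10 were above 0 and the median was -0.03. *Ctsd* was at 0.14 in both media, *Ctss* at 0.07 in both, and *Ctsl* at 0.18 and 0.12.

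**Figure D4:**
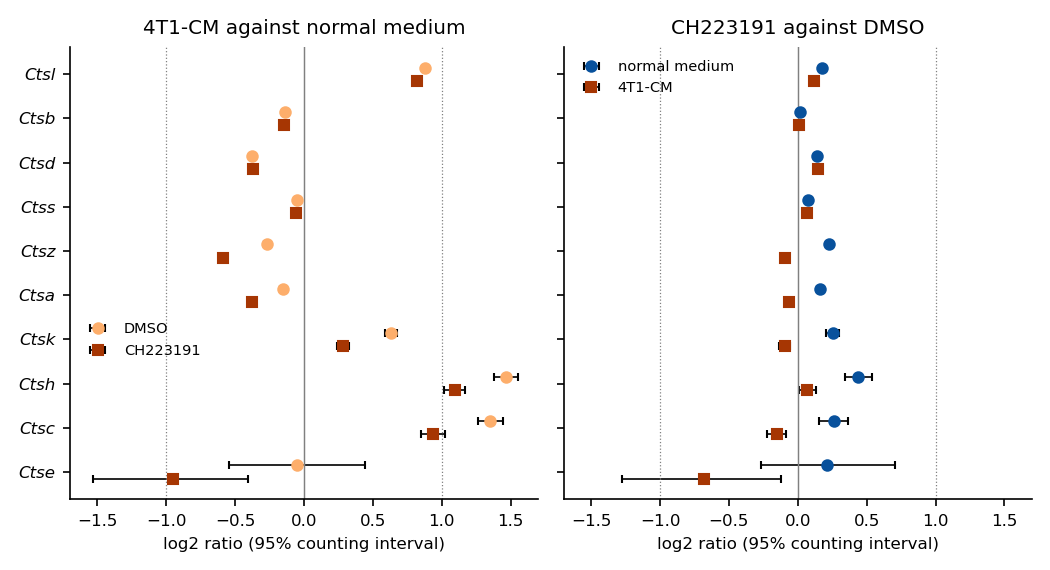
Log2 ratios of the 10 cathepsins with 95% counting intervals (bars, often narrower than the point), for 4T1-CM against normal medium on the left, with DMSO (circles) and CH223191 (squares), and for CH223191 against DMSO on the right, in normal medium (circles) and 4T1-CM (squares). Dotted lines mark 2-fold. *Ctsh* and *Ctsc* reach 1.46 and 1.35 on the left, and on the right no point passes 2-fold.

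The response to 4T1-CM with CH223191, less that with DMSO, gives the change of the medium effect in the presence of the inhibitor. It was below 0 beyond counting error for 7 of the 10 cathepsins and above it for 0, with a median of -0.27 beside -0.01 over all genes. Of the 12805 genes with over 3 reads in every library, 18% were below 0 by the same rule and 17.9% above. These intervals narrow with the number of reads, and all the cathepsins but *Ctse* have many. With 1 library per condition this difference cannot be tested. It was -0.41 (-0.54 to -0.29) for *Ctsc*, -0.37 (-0.49 to -0.26) for *Ctsh* and -0.35 (-0.41 to -0.28) for *Ctsk*. *Ctsh*, *Ctsc* and *Ctsk* were thus less far above normal medium with the inhibitor than with DMSO. *Ctsz* at -0.32 (-0.35 to -0.30) and *Ctsa* at -0.23 (-0.26 to -0.20) were further below it. For *Ctsl* the difference was -0.06 (-0.07 to -0.05), and for *Ctsb*, *Ctsd* and *Ctss* it was between -0.01 and 0.01 with intervals that held 0. For 4 cathepsins (*Ctsa*, *Ctsc*, *Ctsk* and *Ctsz*) the ratio of CH223191 against DMSO was above 0 in normal medium and below 0 in 4T1-CM beyond counting error, as for 3.01% of the 12805 genes, while 2.76% showed the opposite. *Ctse* had -0.90 (-1.62 to -0.18) from few reads. With each ratio taken less the median of genes of similar length, the difference was -0.50 for *Ctsh* and -0.44 for *Ctsc*, but -0.11 for *Ctsk* and -0.19 for *Ctsz*. It was then -0.28 for *Ctsa*, -0.17 for *Ctsl* and -0.13 for *Ctsb*, and above 0 for *Ctsd* at 0.11 and *Ctss* at 0.06.

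Among the genes that act on cathepsins, the inhibitors came first. Of 11 cystatin and related genes 4 were kept. Cystatin C, *Cst3*, a secreted inhibitor of cysteine cathepsins, had 22900 and 32279 reads in normal medium and 21028 and 21501 in 4T1-CM. Its log2 ratio with 4T1-CM was -0.26 with DMSO and -0.62 with CH223191, and it fell by 0.44 ± 0.13 in the additive fit (adjusted p = 0.023). Less the median of genes of its length it was at 0.01 and -0.15. Within a library there were 0.129 and 0.162 reads of *Cst3* per read of *Ctsl* in normal medium and 0.0588 and 0.0599 in 4T1-CM.

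Cystatin B, *Cstb*, the inhibitor inside the cell, had its highest count in normal medium with CH223191. It had no call for 4T1-CM in the additive fit (adjusted p = 0.39). With DMSO it had 6775 reads in normal medium, against 9237 in 4T1-CM. CH223191 gave 13937 in normal medium, against 8021 in 4T1-CM. In normal medium the log2 ratio of CH223191 against DMSO was 1.04 for *Cstb*. The 50 genes nearest to its 603 bases had a median of 0.66, which left 0.39. In 4T1-CM the ratio of CH223191 against DMSO was -0.10. For 4T1-CM against normal medium *Cstb* had 0.31 with DMSO and -0.83 with CH223191. Less the median of genes of similar length, these were 0.51 and -0.34. *Cst7*, cystatin F, had 0 and 4 reads in normal medium and 26 and 12 in 4T1-CM, and *Stfa3* had 0 and 0 against 11 and 4. *Cst7* and *Stfa3* had calls in the additive fit, at counts too low for a fold, and neither had one by DESeq2.

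In a list of 9 genes for sorting and processing, 0 rose and 2 fell, where 16.4% of all genes rose and 16.2% fell. The 2 were *Psap* and *Nagpa*. *Psap*, the saposin precursor, had log2 ratios of -0.50 with DMSO and -0.25 with CH223191 (adjusted p = 0.012). *Nagpa*, which uncovers the mannose 6-phosphate tag, had -0.77 and -0.84 (adjusted p = 6.2e-04). With DESeq2 the adjusted p of *Psap* was 0.076. Legumain, *Lgmn*, which cleaves cathepsin precursors, had -0.36 and -0.13 (adjusted p = 0.14). The receptors *M6pr* and *Igf2r* had 0.34 and 0.16, and -0.35 and -0.26, with no call. The partners of CTSA in its complex were at 0.79 and 0.70 for the neuraminidase *Neu1*, which rose (adjusted p = 0.0013), and at 0.25 and 0.16 for the β-galactosidase *Glb1*, which had no call. Reads of *Ctsa* per read of *Neu1* were 15.4 and 17.4 in normal medium and 8.0 and 8.24 in 4T1-CM.

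The MiT/TFE factors, which drive lysosomal genes, were lower with 4T1-CM. *Tfeb* had 1470 and 1389 reads in normal medium and 493 and 476 in 4T1-CM, with log2 ratios of -1.71 and -1.57 (adjusted p = 5.5e-06). Of the 4 factors 3 fell, beside 16.2% of all genes. *Mitf* was at -0.74 and -0.57 and *Tfe3* at -0.29 and -0.42, and *Tfec* had no call. The adjusted p of *Tfe3* was 0.048 with edgeR and 0.15 with DESeq2, which called 2 of the 4. Of 24 other lysosomal genes 6 rose and 6 fell, beside 16.4% and 16.2% of all genes. The 24 had median log2 ratios of 0.06 with DMSO and -0.19 with CH223191, and DESeq2 called 4 higher and 6 lower. The acid lipase *Lipa* was the lowest of these, at -1.36 and -1.69. Of the genes of MHC class II processing, the lysosomal thiol reductase *Ifi30* fell (-0.58 and -0.91, adjusted p = 0.0019), while *Cd74* and *H2-DMa* had no call and *H2-DMb1* was not kept. For CH223191, 0 genes of the inhibitor, sorting, partner, MiT/TFE, lysosomal and MHC class II lists had a call in the additive fit. Of all genes, 0.0729% were called higher and 0.00729% lower.

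Of 13 further cathepsin genes 10 had no read in any library. *Ctso* had 874 and 931 reads in normal medium and 1244 and 1045 in 4T1-CM, and *Ctsf* had 225 and 233 against 306 and 285, both without a call. The remaining gene, *Ctsw*, had at most 1 read in a library.

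**Figure D5:**
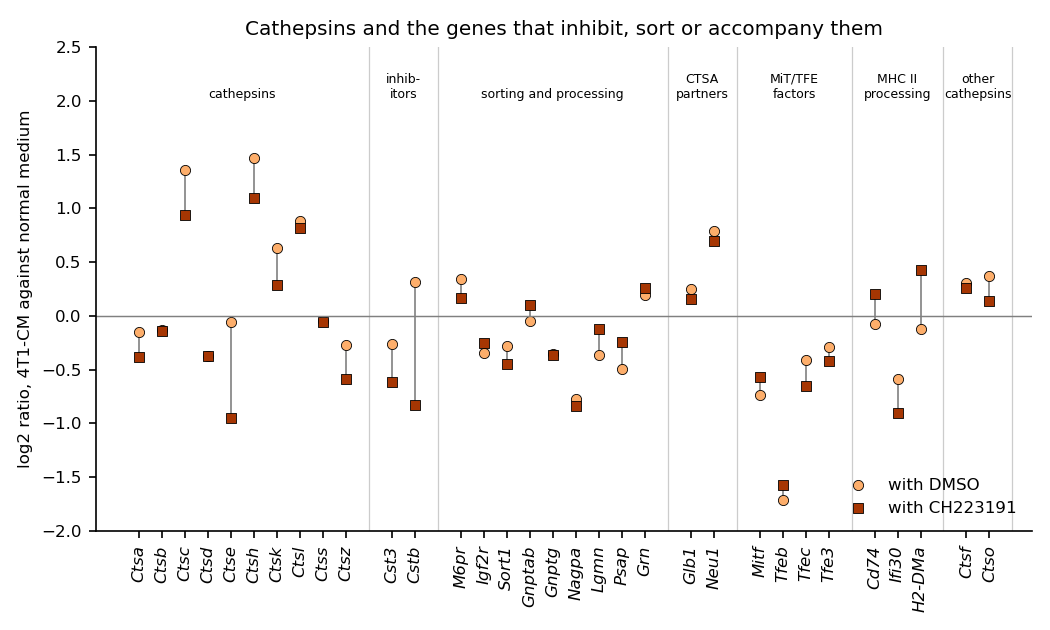
Log2 ratio of 4T1-CM against normal medium for the 10 cathepsins and for genes that inhibit, sort or accompany them, with DMSO (circles) and CH223191 (squares), joined by a line for each gene. *Tfeb* is the lowest, at -1.71 and -1.57. *Cstb* has values on both sides of 0, as do *Gnptab*, *Cd74* and *H2-DMa*. *Cst7* and *Stfa3* are left out because a library had 3 reads or fewer.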

How the data were processed

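RNA was extracted with TRIzol and libraries were made with the NEBNext Ultra kit. Alignment with HISAT2 2.0.5 and the use of DESeq2 are named in the submitters' processing notes, while the counting program, its strand setting and the version of the annotation are not given in the sources used here. The table that the authors deposited holds raw read counts of each gene, not normalized, beside gene lengths and coordinates. Coordinates were equal to those of GENCODE M21 for 53462 of 54409 shared genes.

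The libraries held 15535405 to 17557127 reads, and 3 reads were worth 0.171 to 0.189 CPM. Genes reaching 10 reads in any library were retained. Libraries were scaled with TMM (edgeR 4.0.16, R 4.3.3), and log2 ratios were taken with a prior count of 0.5. Intervals are exact Clopper-Pearson 95% intervals of how a gene's reads divide between 2 libraries, or delta-method intervals for differences of ratios, and cover counting error only. A medium plus inhibitor fit used the quasi-likelihood test of edgeR with Benjamini-Hochberg adjustment over 13715 genes, and DESeq2 1.42.0 was the alternative. The procedure was run on simulated counts whose medium effect did not depend on the inhibitor. That run does not measure the spread between cultures treated alike. TPM used the deposited gene length. Correction for length used the 50 genes nearest in length among those with at least 100 reads in every library and was chosen after seeing the data. 50-base words shared between genes were counted on GENCODE M21 transcripts, and promoter windows came from RefSeq (GRCm38.p6).

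All 10 cathepsins are named. Genes of other lists were named where the list had at most 15 genes. For a longer list the rule took the 3 with the largest smaller ratio among those 2-fold changed in both comparisons. The members and lists were chosen with earlier results of these data known. Alternatives were other scalings, prior counts, filters, folds and lengths.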

Additional observations from a re-analysis of the deposited data

Results flagged for a closer look

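For 4 cathepsins, CH223191 against DMSO gave a ratio above 0 in normal medium and below 0 in 4T1-CM, with both counting intervals on their side of 0. With 1 library per condition the difference was not tested. The log2 ratio in 4T1-CM less that in normal medium was -0.41 for *Ctsc*, -0.35 for *Ctsk*, -0.32 for *Ctsz* and -0.23 for *Ctsa*. The median of all genes kept was -0.01. Of the 12805 genes with over 3 reads in every library, 3.01% had ratios of this kind, and 2.76% had them in the opposite order. These intervals narrow with the number of reads. Less the median of genes of similar length, the differences were -0.44, -0.11, -0.19 and -0.28 in the same order.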

How the results depend on the processing

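No paired analysis was possible because each condition has 1 library and the labels carry no replicate numbers, and leaving out a library would leave a condition empty. Of 360 log2 ratios of the cathepsins under alternatives, 277 stayed within their counting interval, 78 moved and 5 reversed. Other scalings moved a ratio by at most 0.058 and the correction for gene length by at most 0.44. The reversed values were, with that correction, 0.30 for *Ctss* and 0.017 for *Ctsz* with 4T1-CM in DMSO, 0.36 for *Ctss* with 4T1-CM in CH223191 and -0.044 for *Ctss* with CH223191 in normal medium, and, with total counts, -0.044 for *Ctsb* with CH223191 in normal medium. At 1.5-fold, 4 cathepsins were higher with 4T1-CM in DMSO, 3 were higher and 2 lower in CH223191, and 1 was lower with CH223191 in 4T1-CM, beside 20.1%, 20.9%, 17.5% and 6.15% of all genes. DESeq2 called 4 higher and 1 lower with 4T1-CM, where edgeR called 4 and 2.

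The log2 ratio of the summed cathepsin reads kept its sign in every alternative run. With 4T1-CM in DMSO it was 0.044 with total counts, 0.079 with the upper quartile, 0.090 with protein-coding genes, 0.067 with no filter and 0.111 with 10 reads in every library. In CH223191 it was 0.041 with DESeq2 size factors, 0.058 with total counts, 0.031 with the upper quartile, 0.027 with no filter and 0.073 with 10 reads in every library. With CH223191 in normal medium it was 0.047 with total counts, 0.122 with the upper quartile, 0.114 with protein-coding genes and 0.109 with no filter. In 4T1-CM it was 0.057 with DESeq2 size factors, 0.061 with total counts and 0.074 with the upper quartile. The cause of these moves was not tested. Limits are the lack of replicates, the low counts of *Ctse* and the length trend for *Ctsz*, *Ctss*, *Ctsk* and *Ctsd*. Others are the unknown strand setting and the exons shared with other genes for *Ctsa*, *Ctsb*, *Ctsd* and *Ctsl*.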
